A study of Homo sapiens with 8 samples.

Results

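Complement is a cascade of plasma and cell-surface proteins, and 9 of its genes were followed here in U2OS cells in which CDK9 had been silenced. They are the regulator CFI, the anaphylatoxin receptor C3AR1, the components C3, C5, C1S and C1R, and the membrane regulators CD46, CD55 and CD59. They were taken from 18417 genes with a probe set of a single annotated symbol, and each of the 9 had 1 such probe set. The set was drawn up with the falls of CFI and C3AR1 in these same arrays in view. The differences of the 9 genes between the groups are therefore given as a description, with no p-value.

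U2OS is a human osteosarcoma cell line. In the CDK9 siRNA group, cells were transfected with siRNA against CDK9, the kinase that releases paused RNA polymerase II, and in the control group with a non-targeting siRNA. Both siRNAs were given at 10 nM and cells were harvested after 72 h, with 4 arrays per group. All arrays come from 1 cell line in serum-containing medium, and the labels do not state how many siRNA sequences were used.

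Complement is triggered when the C1 complex, in which the proteases C1R and C1S sit on the recognition protein C1q, meets an antibody or a damaged surface, or when C3 is activated directly. Cleaved C3 marks surfaces and releases the peptide that C3AR1 senses, and cleaved C5 starts the membrane attack complex. Host cells hold the cascade in check with CD46 and with plasma factor H as cofactors for the protease factor I, the product of CFI, with CD55, which takes convertases apart, and with CD59, which blocks the attack complex. The liver makes most plasma complement, while many mesenchymal cells make C1R, C1S and C3 locally.

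In these cells the silencing of CDK9 went with less CFI and C3AR1 mRNA and more CD46 mRNA. CFI was at 31.1% and C3AR1 at 41.1% of the control signal over both array sets, and CD46 was 1.49-fold higher. In array sets 1 and 2, described below, CFI was at 60.3% and 24.9%, and C3AR1 at 65.2% and 35.3%. C1R was 0.826-fold and CD55 1.12-fold the control level, and both changes were small. C3 was lower in one array set and higher in the other, and C1S, C5 and CD59 were not called.

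The sequences just before the start sites of the genes that moved most, and of CD55, which lies in the same gene cluster as CD46, are given first, since these genes moved in opposite directions. Each is the run of 250 bases before the RefSeq start on the gene's own strand, in build GRCh38.p14. Of the 9 genes, 7 matched an entry of the RefSeq promoter table, and for CD46 the more upstream of its windows is printed. Capitals mark matches to the motifs searched below, and which start site U2OS cells use was not measured.
CFI (chr4:109802000-109802249, minus strand): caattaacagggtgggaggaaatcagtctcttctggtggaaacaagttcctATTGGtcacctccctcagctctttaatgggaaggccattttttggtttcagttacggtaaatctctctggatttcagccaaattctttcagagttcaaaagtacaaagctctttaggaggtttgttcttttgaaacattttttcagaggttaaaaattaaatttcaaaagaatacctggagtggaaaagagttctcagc
C3AR1 (chr12:8066360-8066609, minus strand): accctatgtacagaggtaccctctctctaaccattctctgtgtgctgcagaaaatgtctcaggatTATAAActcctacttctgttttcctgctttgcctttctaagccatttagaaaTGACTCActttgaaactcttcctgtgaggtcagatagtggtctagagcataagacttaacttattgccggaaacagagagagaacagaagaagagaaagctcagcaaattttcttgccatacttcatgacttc
CD46 (chr1:207751788-207752037, plus strand): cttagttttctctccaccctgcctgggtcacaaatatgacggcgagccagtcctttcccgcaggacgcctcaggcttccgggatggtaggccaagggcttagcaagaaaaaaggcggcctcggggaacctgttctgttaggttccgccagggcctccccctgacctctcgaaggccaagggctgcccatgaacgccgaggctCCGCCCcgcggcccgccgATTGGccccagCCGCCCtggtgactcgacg
CD55 (chr1:207321428-207321677, plus strand): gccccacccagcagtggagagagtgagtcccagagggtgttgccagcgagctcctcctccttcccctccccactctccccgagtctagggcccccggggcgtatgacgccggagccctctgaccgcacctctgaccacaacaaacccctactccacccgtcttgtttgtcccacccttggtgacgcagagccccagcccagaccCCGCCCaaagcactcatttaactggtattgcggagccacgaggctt

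These windows differed in base composition, but their genes were picked with their direction in view, so nothing about direction is read from it. The CFI window was 38.0% G or C with 1 CpG and the C3AR1 window 40.8% with 1 CpG. The CD46 window was 64.8% G or C with 19 CpG and the CD55 window 64.0% with 12 CpG. Over 35116 windows of the same length from 27305 genes, the median was 58.0% and 11 CpG, so the CFI and C3AR1 windows lay low at percentiles 9.82 and 14.5 for G or C content. Of the other genes, the C1R windows were 54.0% and 63.2% G or C. Those of C5, which was not called and has start sites of unlike composition, were 69.2% and 34.8%. The windows of CD59, which was not called, were 62.0%, 70.4%, 43.6% and 52.0%.

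A search of both strands used TGANTCA for AP-1, TATAAA for a TATA box, CCAAT for a CCAAT box, GGGCGG for a GC box and TTCNNNGAA for a STAT site. These motifs were held by 6.57%, 10.7%, 32.0%, 42.6% and 6.57% of all windows. The C3AR1 window held the AP-1 letters TGACTCA at 133 to 127 bases before the start and TATAAA at 185 to 180. The CFI window held 1 match, a CCAAT box on the other strand at 199 to 195 bases before the start. The CD46 window held a CCAAT box and 2 GC boxes, and the CD55 window 1 GC box. Elsewhere, 1 of the 4 CD59 windows held 2 AP-1 matches, and 1 of the 2 C1R windows and 2 of those of CD59 a STAT match. Those 2 CD59 windows overlap, and their STAT match is the same site. A match describes the letters of a window and is not evidence of binding.

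The arrays come in 2 sets. Replicate 1 of both groups, here called array set 1 (2 arrays), had lower typical values than array set 2, the 6 arrays of replicates 2 to 4. Array medians were 5.85 and 5.80 (log2) in array set 1 and 6.99 to 7.04 in the other arrays. Group differences were therefore fitted in limma with array sets as blocks, and a gene is called higher or lower where its Benjamini-Hochberg adjusted p over all 18417 genes was under 0.05. CDK9 itself was at 28.4% of the control signal (log2 -1.82 ± 0.05 SE, n = 4 per group). By markers, 8 of 9 genes of mesenchymal or osteosarcoma cells were above the lowest 30% of mean signal (log2 6.14), the level under which a gene is called dim here. Of the 9, 4 were called lower after CDK9 siRNA, all collagen, vimentin or RUNX2 genes, and 0 higher. Of all genes, 7.47% were called lower and 6.73% higher. Vimentin (VIM) lost its call when the arrays were paired by replicate number (limma adjusted p = 0.0808).

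**Figure D1:**
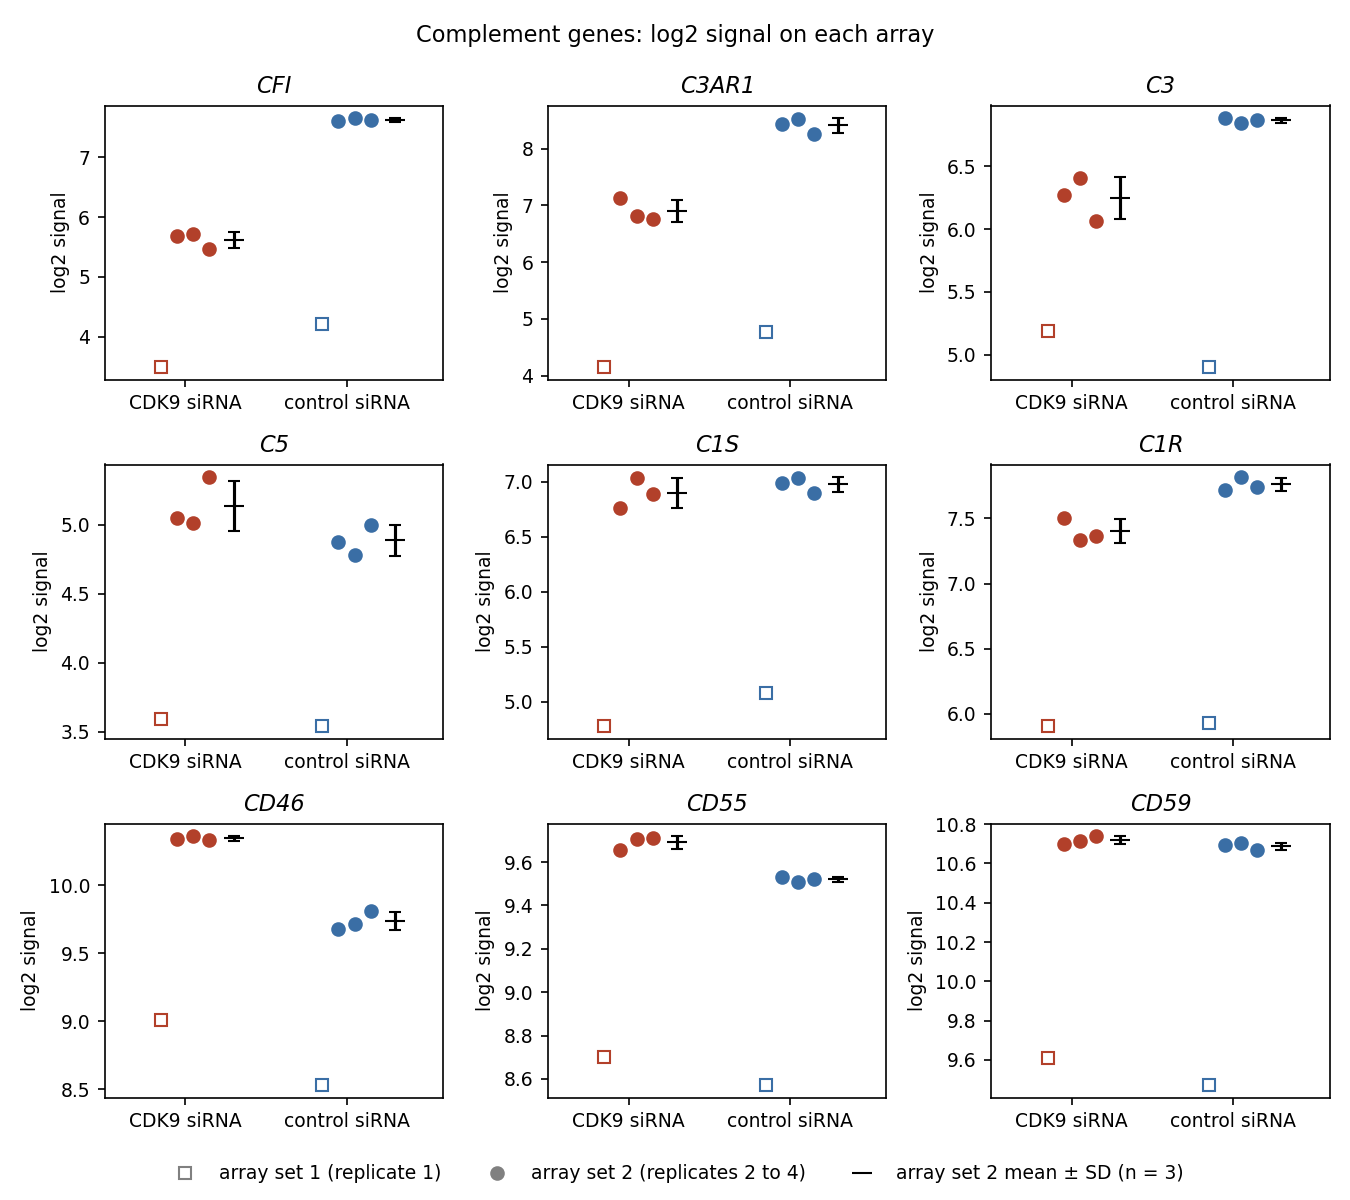
Log2 signal (vertical axis) of the 9 complement genes on each of the 8 arrays, with CDK9 siRNA left and control siRNA right. Open squares are array set 1 (replicate 1), filled circles array set 2 (replicates 2 to 4), and the bar beside them is the mean ± SD of array set 2 (n = 3). The array set 1 squares lie lowest in every panel. Within array set 2 the groups are apart for all genes but C1S and CD59, for C5 only just. The array set 1 pair differs in the same direction for these genes, except C3.

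Over both array sets, 3 of the 9 genes were called lower (CFI, C3AR1 and C1R) and 2 higher (CD46 and CD55), where 7.47% and 6.73% of all genes were called. In both sets without overlap, 3 genes lay below the controls (CFI, C3AR1 and C1R) and 3 above (CD46, CD55 and C5), against 13.8% and 11.5% of all genes. Array set 1 has 1 array per group, so there this is only the sign of a difference, -0.02 for C1R and 0.06 for C5. Since this contrast was used to draw up the set, nothing is read from these counts. With arrays paired by replicate number, 2 of the 9 were called lower (CFI and C3AR1) and 1 higher (CD46), against 4.75% and 4.41% of all genes.

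CFI encodes factor I, the serine protease that inactivates cleaved C3 and C4. Its log2 signal was 3.49 in replicate 1 and 5.67, 5.71 and 5.46 in replicates 2 to 4 after CDK9 siRNA, against 4.22 and 7.60, 7.66 and 7.62 with control siRNA. Every CDK9 siRNA array was below the control arrays of its own array set. CFI differed by -1.69 ± 0.19 on the log2 scale (SE, n = 4 per group), and only SEMA3A and CDK9 had a lower value among all genes. The fall left 60.3% of the control signal in the replicate 1 pair and 24.9% in replicates 2 to 4. CFI was a dim gene by its mean over all arrays. In array set 2 it stood at percentiles 16.3 to 18.9 of all genes on the CDK9 siRNA arrays and 49.2 to 50.2 on the control arrays. In the replicate 1 pair it stood at 4.81 and 14.6. Only the array set 2 controls were thus above the lowest 30% of genes, which limits how exactly the percentages left can be read.

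C3AR1 encodes the receptor for the small peptide released from C3, best known on myeloid cells. Its log2 signal was 4.15 in replicate 1 and 7.12, 6.82 and 6.77 in replicates 2 to 4 after CDK9 siRNA, against 4.77 and 8.44, 8.52 and 8.26 with control siRNA. The groups did not overlap within array set 2, and in the 1 pair of array set 1 the CDK9 siRNA array was below its control. C3AR1 differed by -1.28 ± 0.15 on the log2 scale (SE, n = 4 per group). Of the control signal, 65.2% was left in array set 1 and 35.3% in replicates 2 to 4. Both array set 1 values lay in the lowest 30% of genes of their arrays, at percentiles 13.2 and 22.2. This limits how exactly the 65.2% can be read.

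Because C3AR1 marks myeloid cells, the markers of such cells were read on the same arrays. Of 11 myeloid markers 7 were dim, PTPRC (CD45), CD14 and CSF1R among them. CD68, SPI1, TYROBP and MARCO were not dim, at percentiles 45.1, 43.1, 48.6 and 37.7 of all genes by mean signal. The mean log2 signal of the 11 was 5.71 to 5.81 after CDK9 siRNA and 5.79 to 5.83 with control siRNA in array set 2. In the replicate 1 pair it was 4.94 and 4.87. CD68 was called lower (log2 -0.31 ± 0.08 SE, limma adjusted p = 0.0248) and MARCO higher (0.27 ± 0.07, adjusted p = 0.0340). Of all genes, 7.47% and 6.73% were called in those directions. The CD68 call was lost when the arrays were paired by replicate number (limma adjusted p = 0.0645). Of 9 hepatocyte markers 7 were dim, all but SERPINA1 and APOA1 at percentiles 77.6 and 39.1, and 0 were called in limma. At an unadjusted p under 0.05 there was 1 higher and 0 lower, beside 2448 and 2712 of all 18417 genes. Of 5 epithelial markers 2 were dim, while KRT8 and KRT18 lay at percentiles 99.6 and 99.5 of all genes by mean signal. Of the 5, 1 was called higher, the dim gene EPCAM, which lost its call under the same pairing (limma adjusted p = 0.0841). KRT8 went the other way, at -0.23 ± 0.07, and was not called (limma adjusted p = 0.0563). The part of these markers in the complement values was not tested, and in bulk RNA fewer cells with a transcript and less transcript per cell cannot be told apart.

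The replicate 1 arrays differed from the rest in more than scale. A gene's percentile among all genes of its own array does not depend on the array's scale. With control siRNA, C3AR1 stood at percentile 22.2 on the replicate 1 array and at 60.4 to 65.1 on the others, and CFI at 14.6 and at 49.2 to 50.2. Over all genes the median shift between the sets was 2.94 percentile points and 5% of genes moved by more than 11.8. C3AR1 had moved by -40.9 points, which 0.0271% of genes exceeded, and CFI by -35.2 points, which 0.0706% exceeded.

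The same was seen after CDK9 siRNA, where CFI stood at percentile 4.81 in array set 1 and C3AR1 at 13.2, each below its array set 2 range. CD46 and CD59 moved by -3.08 and -2.54 points with control siRNA, close to the median of all genes in size, and CD55 by 0.61 points, less than 86.3% of genes. C3, C1S and C1R lay between, at -12.6, -11.6 and -10.7 points. Array set 1 has 1 array per group, so these shifts have no replicate check, and their cause was not tested.

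A test of whether the group difference itself differed between the sets was run in limma over all genes (395 called, 2.14%). It called 2 of the 9 genes. Since it uses the differences with which the set was drawn up, nothing is read from that count and no p-value is given. For CFI the array set 1 difference minus that of array set 2 was 1.28 on the log2 scale, for C3 0.91 and for C3AR1 0.89. CFI and C3 were the called genes, and C3 was not called when all arrays were quantile normalized again. Array set 1 has 1 array per group, so the spread behind the calls comes from array set 2 alone. On both array set 1 arrays CFI, C3 and C3AR1 lay in the lowest 30% of genes, which limits what their differences there can show.

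**Figure D2:**
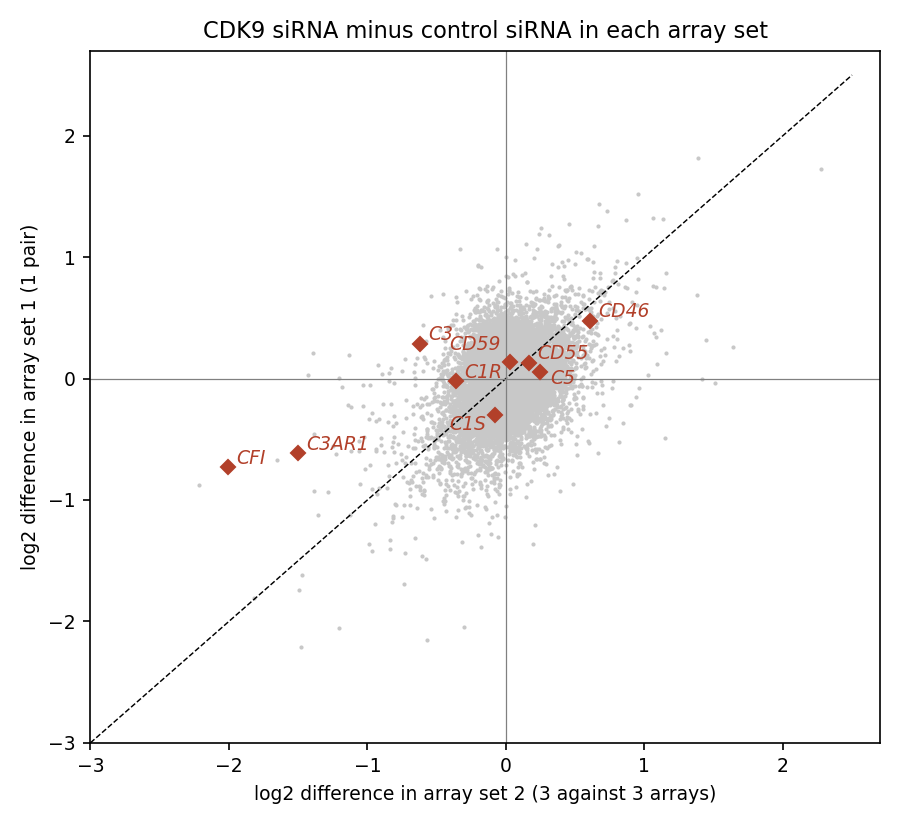
Log2 difference, CDK9 siRNA minus control siRNA, in array set 2 (horizontal, 3 against 3 arrays) and in array set 1 (vertical, 1 pair) for all 18417 genes (grey) and the 9 complement genes (red). On the dashed line both sets give the same difference. CFI and C3AR1 lie well above that line, at -0.73 and -0.62 on the vertical axis and at -2.01 and -1.50 on the horizontal one, while CD46 lies close to it.

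C3 is the central component on which all activation routes meet. Its log2 signal was 5.19 in replicate 1 and 6.27, 6.40 and 6.07 in replicates 2 to 4 after CDK9 siRNA, against 4.90 and 6.88, 6.84 and 6.87 with control siRNA. The CDK9 siRNA arrays were lower than all controls in array set 2 and higher in the pair of array set 1. Over both sets C3 differed by -0.39 ± 0.15 (log2, SE, n = 4 per group) and was not called. In array set 2 alone it was -0.62 ± 0.08 (n = 3 per group) and was called lower, where 8.57% of all genes were, leaving 65.2% of the control signal, while array set 1 gave 0.29.

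C5 is cleaved into the peptide sensed by its own receptor and the fragment that opens the terminal pathway. Its log2 signal was 3.59 in replicate 1 and 5.05, 5.01 and 5.35 in replicates 2 to 4 after CDK9 siRNA, against 3.54 and 4.88, 4.78 and 5.0 with control siRNA. CDK9 siRNA arrays lay above the controls in both sets, but only just. C5 differed by 0.20 ± 0.09 (log2, SE, n = 4 per group) and was not called, being a dim gene at percentile 8.83 of all genes by mean signal.

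C1R and C1S encode the paired proteases of the C1 complex and are neighbours on chromosome 12. C1R read 5.90 in replicate 1 and 7.50, 7.33 and 7.37 in replicates 2 to 4 after CDK9 siRNA, against 5.93 and 7.72, 7.82 and 7.74 with control siRNA. C1S read 4.78 in replicate 1 and 6.76, 7.04 and 6.89 in replicates 2 to 4 after CDK9 siRNA, against 5.08 and 6.99, 7.03 and 6.90 with control siRNA. The C1R groups were apart within array set 2 and nearly equal in array set 1, and the C1S groups overlapped in array set 2.

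C1R differed by -0.28 ± 0.07 on the log2 scale and was called lower. For C1S it was -0.14 ± 0.07, which was not called (SE, n = 4 per group each). The C1R call was lost when the arrays were paired by replicate number, and without any 1 of the 6 arrays of array set 2. By set, C1R differed by -0.02 and -0.36, and C1S by -0.30 and -0.08, in array sets 1 and 2. C1RL, the next gene along and a related protease, differed by -0.09 and was not called.

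CD46, membrane cofactor protein, lets factor I cut cleaved C3 and C4 on the cell's own surface. It read 9.01 in replicate 1 and 10.34, 10.36 and 10.33 in replicates 2 to 4 after CDK9 siRNA, against 8.53 and 9.68, 9.72 and 9.81 with control siRNA. Each CDK9 siRNA array was above the control arrays of its set, by more than the spread within either group. CD46 differed by 0.58 ± 0.05 on the log2 scale (SE, n = 4 per group), with 0.48 in the replicate 1 pair and 0.61 in replicates 2 to 4. It ranked 115 among the rises of all genes. The cofactor and the protease it serves differed in opposite directions, CD46 at 149% and CFI at 31.1% of their control signals.

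CD55, decay-accelerating factor, read 8.70 in replicate 1 and 9.66, 9.70 and 9.71 in replicates 2 to 4 after CDK9 siRNA, against 8.57 and 9.53, 9.51 and 9.52 with control siRNA. The groups did not overlap within array set 2, and in the 1 pair of array set 1 the CDK9 siRNA array was above its control. The gaps were small. CD55 differed by 0.16 ± 0.05 (log2, SE, n = 4 per group), with 0.13 and 0.17 in array sets 1 and 2. The call was lost when the arrays were paired by replicate number, with arrays centred on their medians, and without any 1 of the 6 arrays of array set 2, although the difference stayed between 0.15 and 0.17.

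CD59, the membrane inhibitor of the attack complex, read 9.61 in replicate 1 and 10.70, 10.72 and 10.74 in replicates 2 to 4 after CDK9 siRNA, against 9.47 and 10.69, 10.70 and 10.67 with control siRNA. The groups overlapped in array set 2. CD59 differed by 0.06 ± 0.05 (log2, SE, n = 4 per group), and was not called in any of the 16 alternative settings run.

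**Figure D3:**
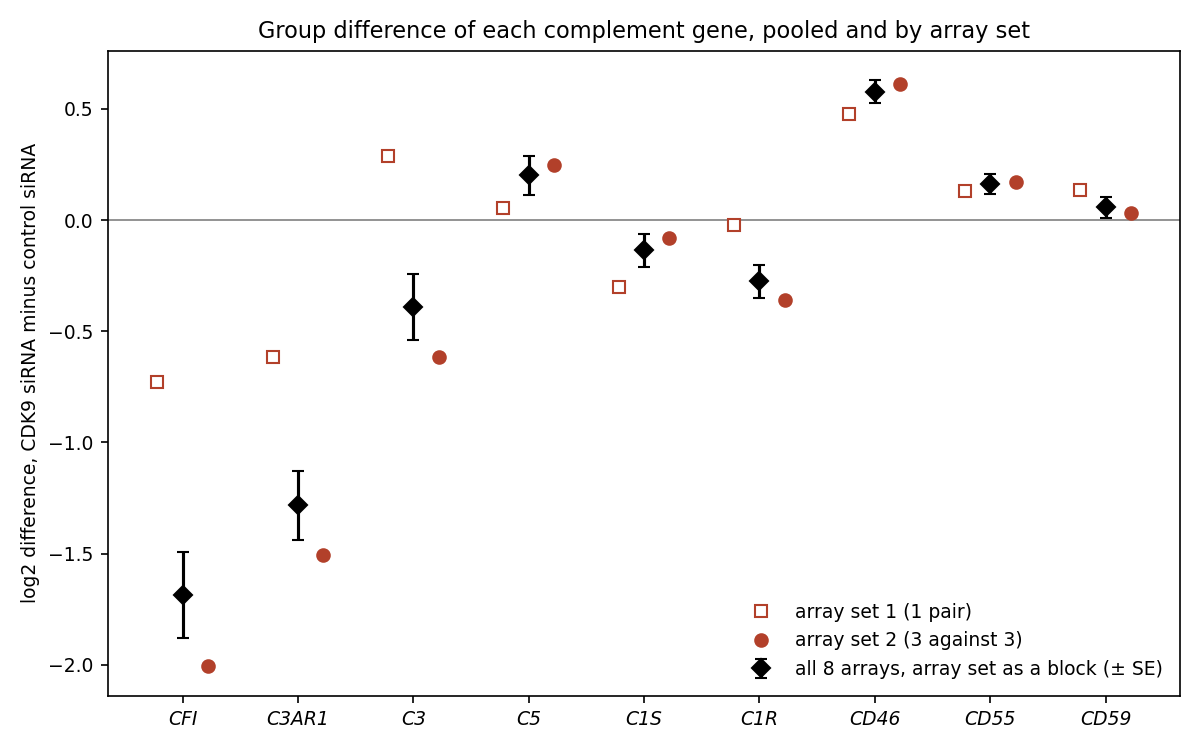
Log2 difference, CDK9 siRNA minus control siRNA (vertical axis), for each of the 9 genes. Black diamonds are the fit over all 8 arrays with array sets as blocks (± SE), open squares array set 1 (1 pair) and filled circles array set 2 (3 against 3 arrays). CD46, CD55, CD59, C5 and C1S have their set values within 0.25 of each other, and CFI, C3AR1 and C3 have theirs 0.89 to 1.28 apart.

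The spread between arrays was small next to the larger differences. Within array set 2, the SD of CFI was 0.136 over the CDK9 siRNA arrays and 0.029 over the control arrays (n = 3 each), that of C3AR1 0.192 and 0.133, and that of CD46 0.016 and 0.066. The median SD over all genes was 0.079 over the CDK9 siRNA arrays and 0.062 over the control arrays. In the CDK9 siRNA group CFI and C3AR1 varied more than that median, and C3AR1 had the largest SD of the 9 genes. C3, C5, C1S and C1R were also above the median there, with SDs of 0.169, 0.184, 0.139 and 0.091.

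Across the 8 arrays, after each array set was centred gene by gene, CFI and C3AR1 followed each other most closely among the 9 genes (Pearson r = 0.988). CD46 and CD55 followed each other at r = 0.974 and ran opposite to CFI, at r = -0.965 and -0.963. These are descriptions over 8 arrays that share the group difference, so genes that changed between the groups are alike or opposite on this measure for that reason alone. Among genes that were not dim, the 3 most like CFI were DOCK4 (r = 0.997), RCAN2 (0.995) and CXCL14 (0.994), which differed by -0.77, -1.07 and -1.15 on the log2 scale. The 3 most like C3AR1 were RAB7B (r = 0.998), RAB27B (0.994) and ENC1 (0.993), which differed by -0.28, -0.79 and -0.38.

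Beyond the 9 genes, a list of 51 other complement genes had 45 with a probe set of a single symbol, 27 of them dim. In limma with the array set as a block, 2 were higher and 1 lower, shares no larger than the 6.73% and 7.47% of all genes called in those directions. The median log2 difference of the 45 was 0.04, beside 0.00 for all genes. The 3 called genes were all regulators, of which 12 were measured. THBD, thrombomodulin, which favours the inactivation of cleaved C3 by factor I, was 1.23-fold higher (log2 0.30 ± 0.06 SE, n = 4 per group, limma adjusted p = 0.0101). C4BPB, the beta chain of C4b-binding protein and a dim gene, was 1.22-fold higher (0.29 ± 0.07, limma adjusted p = 0.0187).

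SERPING1, the C1 inhibitor that removes C1R and C1S from their complex, was 0.845-fold the control level (log2 -0.24 ± 0.07 SE, n = 4 per group, limma adjusted p = 0.0430). It read 6.97 in replicate 1 and 9.74, 9.65 and 9.49 in replicates 2 to 4 after CDK9 siRNA, against 7.38 and 9.80, 9.83 and 9.82 with control siRNA. The CDK9 siRNA arrays lay below the controls in both sets. SERPING1 lost its call in the fit paired by replicate number, in array set 2 alone and with arrays centred on their medians. Of the 8 fits that leave out 1 array it was called in 1, the one without CDK9 siRNA replicate 2. Like CFI and C3AR1 it stood lower on the control array of array set 1, at percentile 64.7, than on those of array set 2, at 85.5 to 85.7, a shift exceeded by 0.668% of genes.

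THBD read 6.40 in replicate 1 and 7.92, 7.79 and 7.82 in replicates 2 to 4 after CDK9 siRNA, against 6.24 and 7.55, 7.45 and 7.51 with control siRNA. C4BPB read 4.60 in replicate 1 and 6.07, 6.02 and 6.03 in replicates 2 to 4 after CDK9 siRNA, against 4.43 and 5.83, 5.57 and 5.72 with control siRNA. For both genes every CDK9 siRNA array was above the controls of its set. C4BPB lost its call when replicate 2 or 3 of the CDK9 siRNA group or replicate 4 of the controls was left out, while THBD was called without each array in turn.

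In the other roles 0 genes were called in limma. At an unadjusted limma p under 0.05, 2448 of all 18417 genes were higher and 2712 lower. Among 14 recognition molecules and proteases of the classical and lectin routes, 0 passed an unadjusted p under 0.05. The largest difference there was 0.22 ± 0.11 for the lectin FCN3 (limma adjusted p = 0.219). Of 3 alternative pathway genes, also 0 at an unadjusted p under 0.05, factor D (CFD) differed most at 0.10 ± 0.05 (adjusted p = 0.293). Of 6 terminal components 1 was higher at an unadjusted p under 0.05, and the largest difference was 0.17 ± 0.07 for C8A (adjusted p = 0.129). Of 10 receptors 1 was higher at an unadjusted p under 0.05, and CR2 differed most at 0.21 ± 0.09 (adjusted p = 0.149). Among uncalled regulators C4BPA differed most, at 0.10 ± 0.09 (adjusted p = 0.512).

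**Figure D4:**
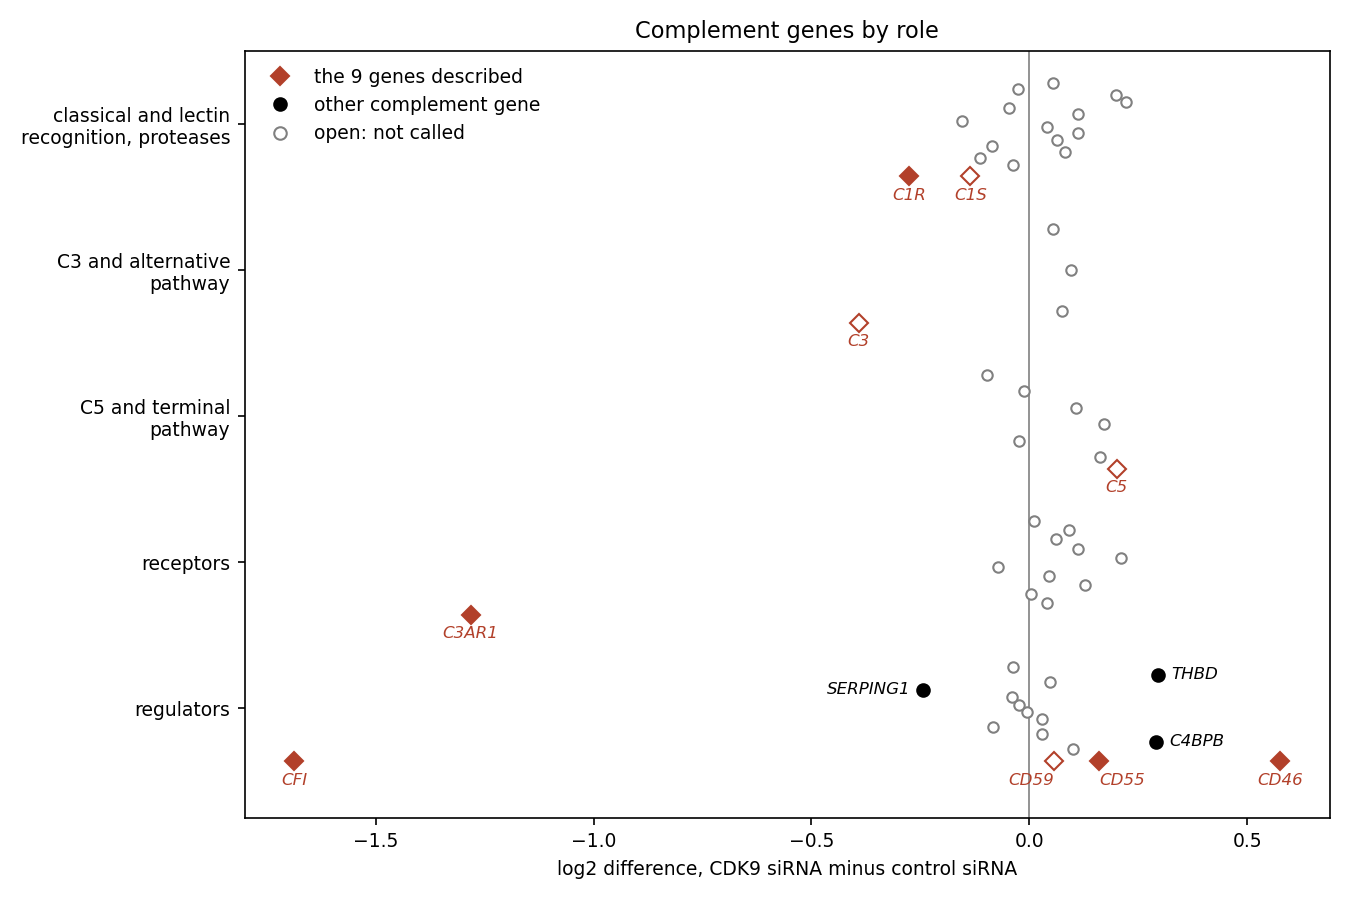
Log2 difference, CDK9 siRNA minus control siRNA (horizontal axis), of the 9 complement genes (red diamonds) and 45 other complement genes (circles), grouped by role down the page. Filled symbols were called in the limma fit and open ones were not. Apart from CFI, C3AR1, C3 and CD46, the genes lie between -0.28 and 0.30.

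CD46 and CD55 lie in a cluster of complement regulator genes on chromosome 1, as ordered in the GRCh38.p14 gene table. From C4BPB to CD46 it holds 7 protein-coding genes in the order C4BPB, C4BPA, CD55, CR2, CR1, CR1L and CD46. Of the 6 measured, 3 were called higher and 0 lower: C4BPB (0.29), CD55 (0.16) and CD46 (0.58), where 6.73% and 7.47% of all genes were called in those directions. CD46 and CD55 are among the 9 genes, so nothing is read from this count, and the CD55 call did not hold with arrays paired by replicate number. The genes between them, C4BPA (0.10), CR2 (0.21) and CR1 (-0.07), were dim and not called, so the called genes were not adjacent to one another.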

How the data were processed

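RNA of U2OS cells was measured on 8 Affymetrix human gene arrays, 4 per group. Values were used as deposited by the authors, on the log2 scale, for 33297 probe sets, and precision rests on the number of arrays. The submitters' processing notes name hg19, limma, RMA and Affymetrix Expression Console 1.1, with roles and order not given in the sources used here. Names came from the platform annotation (1 symbol for 19460 probe sets, several for 1754, none for 12083), keeping the highest-mean probe set per gene.

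The fits used R 4.3.3 and limma 3.58.1 (lmFit and eBayes, two-sided, Benjamini-Hochberg). Array set 1 is replicate 1 of both groups, which a gap in the numbers of the sample descriptions also separates. Sequences were read with pandas 2.3.3 and numpy 2.4.6 and plots drawn with matplotlib 3.10.9, in Python 3.11.15. The fits were tested on simulated data.

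The genes, lists and tests were chosen with earlier results of these data known. Named genes are CDK9, the 9 genes, called genes of the complement list with the largest uncalled one per role, and the 3 genes most like CFI and C3AR1. Markers and cluster neighbours are named as members of their lists, and SEMA3A was chosen after its values were seen. Replicates are described as biological by the series; 0 pairs of arrays were identical. Same-numbered arrays correlated at 0.822, 0.537, 0.494 and 0.607 in their deviations from the group means, above the limit of 0.1, but within array set 2 alone at 0.108, -0.011 and 0.170, so the numbers pair the arrays mainly by array set. Results that lose a call when the arrays are paired by number, as a block, are named.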

Additional observations from a re-analysis of the deposited data

Results flagged for a closer look

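Replicate 1 lay far below the other arrays of its group in 16 of the 18 groups of 4 arrays formed by the 9 genes. Chance passes Dixon's limit for 4 values in about 1 of 20 independent groups. The gap to the nearest array, as a share of the group's range, was above that limit. In the CDK9 siRNA and control groups it was 0.887 and 0.984 for CFI, 0.881 and 0.931 for C3AR1, 0.877 and 0.932 for C1S, 0.893 and 0.949 for C1R, 0.978 and 0.899 for CD46, 0.946 and 0.976 for CD55 and 0.963 and 0.972 for CD59. For C3 and C5 it passed only in the control group, at 0.982 and 0.850. The lowest array was replicate 1 in all 16, as for the array medians. Every group takes its replicate 1 value from an array of lower scale, and the genes share the same arrays. The rate of 1 in 20 therefore does not apply here. Nothing beyond that difference in scale is read from the count of 16.

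The limma fit called a difference between the array sets in the group difference of CFI, of 1.28 (array set 1 minus array set 2), and of C3, of 0.91, with opposite directions in the sets for C3. Array set 1 holds 1 array per group, and on both of its arrays CFI and C3 lay in the lowest 30% of genes.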

How the results depend on the processing

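With no block, limma called 0 genes higher and 0 lower among all genes, the 9 genes and the other complement genes, with 28 and 23 of all genes at an unadjusted p under 0.05; log2 differences are the same in that fit. With a block for each replicate number, 813 genes were higher and 875 lower over all genes, 1 and 2 of the 9 genes, and 2 and 0 of the other complement genes. Of the 9 genes, 1 was higher with arrays centred on their medians. Of the other complement genes, 0 were lower in array set 2 alone or with centred arrays, and 1 was higher without dim genes. Leaving out each array in turn gave 714 to 1753 higher and 806 to 1578 lower genes, 1 to 2 and 2 to 4 of the 9 genes, and 1 to 2 and 0 to 1 of the other complement genes. Quantile normalization again left 1 of the 9 genes with a called difference between array sets; this alternative was chosen after seeing the data. No log2 difference of the 9 genes or the 3 called complement genes changed sign in any setting run: CFI ranged from -2.01 to -1.58, C3AR1 from -1.50 to -1.19, CD46 from 0.55 to 0.61 and C3 from -0.62 to -0.29. Without replicate 1 of either group the fit rests on array set 2. CFI, C3AR1 and CD46 were called in each setting that tested them except the fit with no block. These refits use the arrays with which the set was drawn up, so they are no separate support for those calls. CFI, C5 and C4BPB, as dim genes, had no value where dim genes were left out. The causes were not tested, except that fewer genes or arrays were fitted where some were left out. Dim genes such as C5 and CFI are close to the background, which limits what the arrays can show for them.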
